A study of Columba livia with 18 samples.

Results

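The sodium-potassium pump (Na,K-ATPase) moves sodium out of cells and potassium into them, and it is built from a catalytic alpha subunit, a beta subunit that carries the assembled pump to the plasma membrane, and often a small regulatory FXYD subunit. Described here are the 3 beta subunit genes measured in auditory hair cells of the pigeon (Columba livia), ATP1B1, ATP1B3 and ATP1B4, which are 3 of 20918 gene models in the table. Each matched 1 gene model by the symbol that the annotation gives it from sequence similarity. The group was chosen by expression: ATP1B4 stood 18th of all gene models by mean FPKM in hair cells with cuticulosomes and 121st in hair cells without them, so its levels and the difference between the groups are given as description, with no test.

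FPKM is the number of fragments scaled to the length of the transcript and to the mapped fragments of the library, so genes can be compared with each other on it. The cuticulosome is a body rich in iron that some bird hair cells hold beneath the hair bundle, inside the cuticular plate. From each of 9 birds of 1 year of age, 30 hair cells with cuticulosomes and 30 hair cells without cuticulosomes were picked by micropipette from the trypsin-treated cochlear duct, after removal of the lagena, and each pool gave 1 library. This makes 9 libraries with cuticulosomes and 9 without, paired by bird, and the labels name no treatment or genetic change for either group. The birds were sequenced in 3 runs of 3 birds: pigeons 433, 434 and 435 in run 1, 450, 451 and 458 in run 2, and 513, 514 and 515 in run 3. A pool was sorted by eye under the microscope, so cells or RNA from the neighbouring tissue can be carried into it.

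Beta subunits differ in where they are used. ATP1B1 is the widespread form, and ATP1B3 is found in many tissues beside it. ATP1B4 has an unusual history: in chicken it works as a pump subunit, while in placental mammals its product, called beta-m, sits in the inner nuclear membrane of muscle and binds the transcriptional coregulator SNW1 (SKIP). In the ear the pump is known above all from the epithelium that secretes potassium-rich endolymph, the stria vascularis of mammals and the dark cells of the tegmentum vasculosum in birds, where it works together with the cotransporter SLC12A2, the potassium channel KCNQ1 and barttin (BSND). The dark cells line the cochlear duct opposite the hair cells.

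The libraries were not alike in content, and this touches what follows. Gene models above 0 numbered 16008 in pigeon 435 with cuticulosomes and 13221 in pigeon 435 without, against 8855 to 11148 in the other 16 libraries. The hair cell markers otoferlin (OTOF) and TMC2, a component of the mechanotransduction channel, were found in every library. The summed FPKM of the hair cell list (13 of 18 symbols matched) was 620 in pigeon 435 with cuticulosomes and 2508 to 6318 in the other libraries of that group, against 2901 to 6334 in the libraries without cuticulosomes. Of the marker lists of other cells, some were higher in pigeon 435 and others were not. The supporting cell list (15 of 17 symbols) summed to 3238 FPKM in its pool with cuticulosomes, where the connexin gene GJB6 (CLIV_005073) had 2569 FPKM, and to 201 to 1407 FPKM in the other 17 libraries. Without GJB6 the list summed to 230 FPKM in that pool, within the 143 to 1112 FPKM of the other 17. TECTB, averaging 400 FPKM over the 18 libraries, weighs heavily in that sum, which says little of the other genes. Among these, SOX10 ran from 0 to 114.95 FPKM with cuticulosomes (median 3.195 FPKM) and from 0.0231 to 14.97 FPKM without. The HES5 model CLIV_003453 ran from 0 to 38.6 FPKM with and from 0 to 25.9 FPKM without. The TECTA model CLIV_009059 ran from 2.09 to 39.9 FPKM with and from 5.99 to 45.6 FPKM without. The supporting cell genes SOX2 and GFAP were listed at 0 in 13 and 17 of the 18 libraries. SOX2 had 0.930 FPKM in pigeon 435 with cuticulosomes, 0.721 FPKM in its pool without and at most 5.28 FPKM elsewhere. The fibroblast list (6 of 7 symbols) summed to 507 FPKM in its pool with cuticulosomes and 1707 FPKM in its pool without, against 74.2 to 284 FPKM in the other 16. The red blood cell list (5 of 14 symbols) reached 37327 FPKM in its pool without cuticulosomes and at most 4690 FPKM elsewhere. The neuron list summed to 374 FPKM in the pool of pigeon 435 with cuticulosomes and 391 FPKM in its pool without, inside the 264 to 745 FPKM of all libraries. Read counts were not used here and the depth of each single library is not given in the sources used here, so values carry no counting interval.

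ATP1B4 (CLIV_011228, scaffold 142 of the pigeon assembly used for the files) had the widest range of the 3 genes. In libraries with cuticulosomes it was at 0.206 FPKM in the lowest, 62.0 in the median and 12145 in the highest, against 0.389, 27.6 and 5883 FPKM in those without. The groups overlap over almost all of this range. The high end came from 3 libraries: pigeon 435 with cuticulosomes (12145 FPKM, the most abundant of all gene models in that library), pigeon 435 without cuticulosomes (5883 FPKM, the 6th most abundant) and pigeon 513 with cuticulosomes (4842 FPKM, also the 6th). The other 15 libraries had 125 FPKM or less, and 4 of them were below 1 FPKM. Pigeon 451 was low in both pools, at 0.206 FPKM with cuticulosomes and 0.389 FPKM without.

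Within birds, ATP1B4 was higher in the pool with cuticulosomes in 6 of 9. Pigeon 513 had 4842 FPKM with cuticulosomes and 0.998 FPKM without, which is 11.24 on the log2(FPKM + 1) scale, and pigeon 514 had 18.1 FPKM with and 0.615 FPKM without (3.57 on that scale). In pigeons 433, 435, 458 and 515 the same difference lay between 0.76 and 1.14. Pigeons 434, 450 and 451 were lower with cuticulosomes, by 0.02 to 0.55. The mean FPKM was 1921 ± 4150 with cuticulosomes and 672 ± 1954 without (SD, n = 9 each), so each SD was more than its mean. The linear model limma, with the bird as a block, gave a mean log2 difference of 2.01 with an SE of 0.90. limma draws the variance of each gene towards the trend of all gene models, so this SE is not that of ATP1B4 alone. The SD of its 9 paired differences was 3.66.

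That mean leaned on a few birds. Without pigeon 513 it was 0.86 (SE 0.41), without pigeons 435 and 513 it was 0.83 (SE 0.51), and without the 3 birds of run 3 it was 0.42 (SE 0.35). By run, the mean log2 difference of ATP1B4 was 0.71 ± 0.63 in run 1, 0.13 ± 0.89 in run 2 and 5.19 ± 5.43 in run 3 (SD, n = 3 birds each). The medians (62.0 FPKM with and 27.6 FPKM without cuticulosomes) lay far below the means in both groups: by median FPKM, ATP1B4 stood 1543rd among all gene models in hair cells with cuticulosomes and 2946th in those without.

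**Figure D1:**
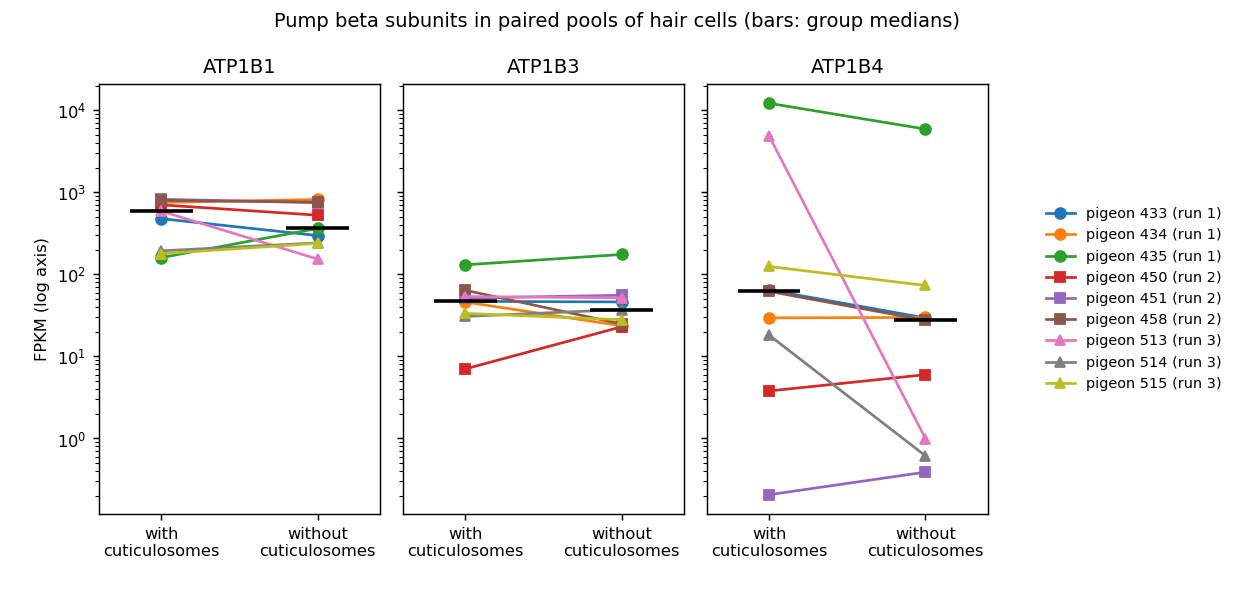
FPKM of ATP1B1, ATP1B3 and ATP1B4 (log axis) in the pools with cuticulosomes (left in each panel) and without cuticulosomes (right), with a line for each of the 9 birds, a marker shape for each sequencing run and a black bar at each group median. ATP1B1 stays between 153 and 823 FPKM, while ATP1B4 runs from 0.206 to 12145 FPKM and pigeon 513 has 4842 FPKM with cuticulosomes and 0.998 FPKM without.

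ATP1B1 (CLIV_002194, scaffold 101) was found at 153 FPKM or more in every library. In libraries with cuticulosomes it had 160 FPKM in the lowest, 589 in the median and 823 in the highest, against 153, 363 and 818 FPKM in those without. The groups cover the same range. The low values came from pigeon 435 with cuticulosomes (160 FPKM), pigeon 513 without (153 FPKM) and both pools of pigeons 514 and 515 (179 to 242 FPKM). Pigeons 513, 514 and 515 made up run 3, with means of 320 FPKM with and 211 FPKM without cuticulosomes. The same means were 463 and 493 FPKM in run 1 and 774 and 677 FPKM in run 2. Each run held different birds, so run and bird cannot be told apart. ATP1B1 was higher with cuticulosomes in 5 of 9 birds, with means of 519 ± 277 FPKM in pools with and 460 ± 258 FPKM in pools without cuticulosomes (SD, n = 9 each) and a log2 difference of 0.13 (SE 0.24). In pigeon 513, ATP1B1 was at 589 FPKM with and 153 FPKM without cuticulosomes, its widest gap within a bird (1.93 on the log2 scale). Leaving that bird out turned the direction, to -0.09 (SE 0.19).

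ATP1B3 (CLIV_009889, scaffold 217) was less abundant than ATP1B1 in every library. It had 7.04 FPKM in the lowest library with cuticulosomes, 46.9 in the median and 131 in the highest, against 23.0, 37.2 and 175 FPKM in those without. Both of its highest values were from pigeon 435, and all other libraries had 64.0 FPKM or less. Pigeon 450 with cuticulosomes held the lowest value. ATP1B3 was higher with cuticulosomes in 5 of 9 birds, with means of 51.5 ± 33.9 FPKM in pools with and 51.6 ± 47.8 FPKM in pools without cuticulosomes (SD, n = 9 each). The log2 difference was 0.02 (SE 0.31), and it lay between -0.14 and 0.22 under the alternatives tried.

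By median level, ATP1B1 came first in both groups (589 FPKM with cuticulosomes and 363 FPKM without). ATP1B4 followed in the group with cuticulosomes (62.0 FPKM, above 46.9 FPKM for ATP1B3), and ATP1B3 in the group without (37.2 FPKM, above 27.6 FPKM for ATP1B4). The order of these 2 lower genes lies within their spread. ATP1B1 was the most abundant beta subunit in 15 of 18 libraries, where it made up 53.0% to 98.5% of the summed beta subunit FPKM. In the other 3 libraries ATP1B4 took that place, with 97.7% in pigeon 435 with cuticulosomes, 91.6% in pigeon 435 without and 88.3% in pigeon 513 with. Outside these, its share reached 37.0% and 21.6% in the pools of pigeon 515 with and without cuticulosomes and was below 11% elsewhere.

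**Figure D2:**
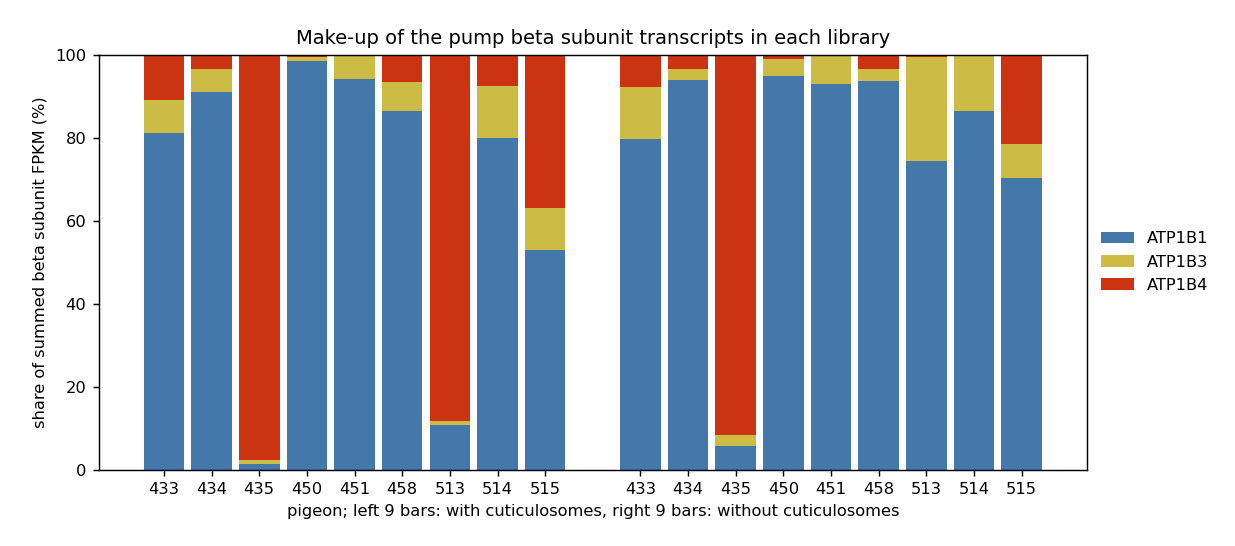
Share of ATP1B1, ATP1B3 and ATP1B4 in the summed FPKM of the 3 beta subunit genes (%), 1 bar per library, with the 9 pools with cuticulosomes at the left and the 9 without at the right, labelled by pigeon. ATP1B4 fills 88.3% to 97.7% of the bar in both pools of pigeon 435 and in the pool of pigeon 513 with cuticulosomes, and ATP1B1 is the largest part of the other 15 bars.

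The spread of ATP1B4 was the widest among the gene models ranked here. ATP1B4 was chosen by a high mean FPKM that a few libraries supplied, so a wide spread follows in part from that choice. The SD of log2(FPKM + 1) over the 18 libraries was 4.05 for ATP1B4, the largest among 11393 gene models (those averaging over 1 FPKM), whose median SD was 1.26. Without the libraries of pigeon 435 it was 3.08, the 4th largest. ATP1B1 (SD 0.91) and ATP1B3 (SD 0.97) varied less than most gene models. Ranked by SD, ATP1B1 was 8883rd and ATP1B3 8524th. Without pigeon 435 their SDs were 0.90 and 0.74. The other gene models of widest spread included the antigen presentation gene CD74, the calcium buffer gene CALB1, KCNQ1 (CLIV_003135) and the otoconial protein gene OC90, with SDs of 3.06 to 3.27.

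**Figure D3:**
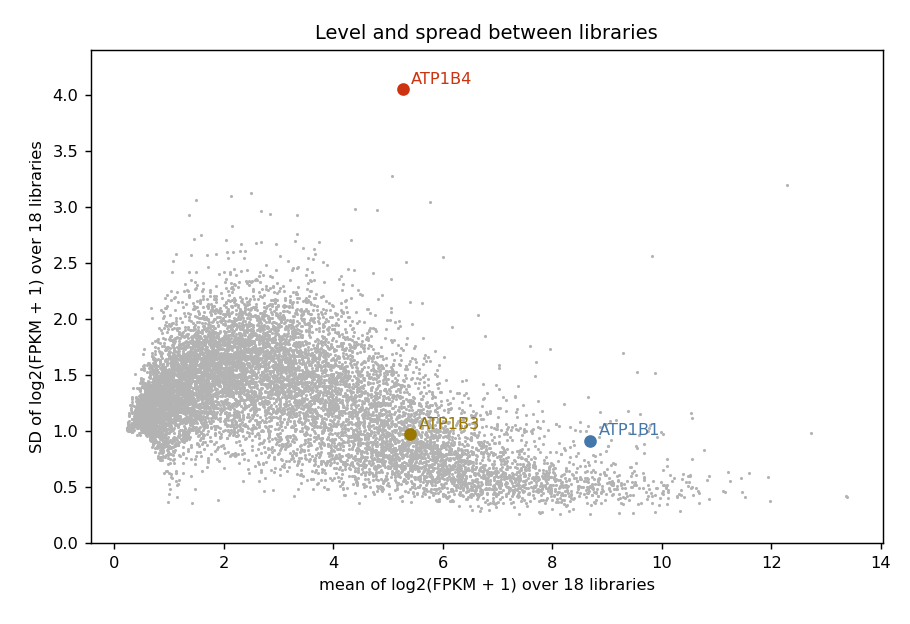
SD against mean of log2(FPKM + 1) over the 18 libraries for 11393 gene models (grey points), with the 3 beta subunits in colour. ATP1B4 lies above every other gene model at an SD of 4.05, while ATP1B1 and ATP1B3 lie below 1.

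For the other genes around the pump, 4 lists were used. The first held pump partners (a further beta subunit, FXYD proteins, NKAIN proteins and the related proton pumps). The others held sodium gradient transporters, regulators and anchors of the pump, and the binding partners of mammalian beta-m. The transporter list holds mostly transporters that run on the sodium gradient, but also the potassium-chloride cotransporters SLC12A4 and SLC12A5, which do not. Across all 11393 gene models tested, limma called 0 higher and 0 lower with cuticulosomes at an adjusted p under 0.05 (0% of gene models in each direction), and the smallest adjusted p was 0.902. The study's own comparison, which ran on counts, did report genes in both directions after its correction. The 0 here therefore belongs to the limma fit of log2(FPKM + 1). At an unadjusted p under 0.05, 372 gene models were higher (3.27%) and 229 lower (2.01%). None of the 5 pump partners, 26 sodium gradient transporters, 20 regulators and anchors and 3 beta-m partners tested was called after adjustment. Without adjustment 0 of these 54 were higher and 2 were lower, a share near the background. The median log2 difference was 0.75 for the partners, -0.06 for the transporters, 0.14 for the regulators and anchors and -0.34 for the beta-m partners, beside 0.05 over all gene models tested. The median of the partners rests on 5 gene models, of which 3 were above 0, and its sign depended on the filter. It was -0.70 over the 3 with FPKM above 1 in at least 9 libraries, and -0.02 over 11 with no filter.

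The pair below the unadjusted threshold were a membrane anchor and a kinase. ANK1, an ankyrin that ties membrane proteins to the spectrin skeleton, averaged 21.2 ± 19.8 FPKM with cuticulosomes and 44.2 ± 44.9 FPKM without (SD, n = 9 each). In 8 of 9 birds the pool with cuticulosomes had less, with a log2 difference of -1.17 (SE 0.34, limma adjusted p = 0.902). OXSR1, a kinase that switches on sodium-coupled chloride cotransporters, averaged 3.46 ± 5.39 FPKM in pools with and 9.32 ± 9.67 FPKM in pools without cuticulosomes (SD, n = 9 each), with a log2 difference of -1.32 (SE 0.58, limma adjusted p = 0.902). Pigeon 435 was the exception among the 9 birds for OXSR1, with 10.7 FPKM with and 4.75 FPKM without cuticulosomes. Neither gene passed the test after adjustment.

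Among the pump partners, FXYD2 was the FXYD gene with a value above 0 in every library. It encodes the gamma subunit, known from the kidney, that tunes the ion affinities of the pump, and it averaged 32.9 ± 15.7 FPKM in pools with and 23.5 ± 22.3 FPKM in pools without cuticulosomes (SD, n = 9 each). In 7 of 9 birds the pool with cuticulosomes had more, with a log2 difference of 0.75 (SE 0.46, limma adjusted p = 0.902). FXYD6, a related regulator, averaged 7.75 ± 12.5 FPKM in pools with and 13.1 ± 17.4 FPKM in pools without cuticulosomes and was listed at 0 in 7 libraries. ATP12A, the catalytic subunit of the non-gastric proton-potassium pump, which also needs a beta subunit, was present throughout at 3.44 to 98.8 FPKM with and 19.3 to 79.7 FPKM without cuticulosomes. In 3 of 9 birds the pool with cuticulosomes had more, with a log2 difference of -0.73 (SE 0.34, limma adjusted p = 0.902). ATP4B, the beta subunit of the gastric proton pump, was listed at 0 in 11 of 18 libraries and was highest in pigeon 435 with cuticulosomes (37.2 FPKM, against 2.92 FPKM in its pool without). Of the 15 symbols of the partner list, 9 matched a gene model. ATP1B2 and the other FXYD genes of the list were not among those matched, so they were not analysed here.

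Of the transporters that use the sodium gradient, the phosphate cotransporter SLC34A2 was by far the most abundant, with means of 801 ± 367 FPKM in pools with and 870 ± 271 FPKM in pools without cuticulosomes (SD, n = 9 each). Its log2 difference was -0.29 (SE 0.20, limma adjusted p = 0.902). Its lowest value, 131 FPKM, was in pigeon 435 with cuticulosomes, the library with the most ATP1B4, against 572 FPKM in the pool of that bird without, and pigeon 513 had 759 FPKM with and 723 FPKM without cuticulosomes. The sodium-proton exchanger SLC9A7 (CLIV_005197) averaged 86.3 ± 59.6 FPKM in pools with and 76.0 ± 40.6 FPKM in pools without cuticulosomes, while the phosphate transporters SLC20A2 and SLC20A1 had means of 62.1 and 52.4 FPKM with, against 69.5 and 40.3 FPKM without. Of the regulators, the kinase SGK1, which raises the number of pumps at the membrane, averaged 148 ± 92.3 FPKM with and 125 ± 87.9 FPKM without cuticulosomes, and the spectrin gene SPTBN1 averaged 199 ± 111 FPKM with and 229 ± 125 FPKM without.

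The partner of mammalian beta-m, SNW1, was found in every library, at 41.1 to 121 FPKM with and 59.8 to 160 FPKM without cuticulosomes. In pigeon 435 it was at 65.8 FPKM with and 110 FPKM without cuticulosomes. In pigeon 513 it was at 121 FPKM with cuticulosomes, the highest value of that group, and 90.7 FPKM without. Of the genes that mark skeletal muscle, the site of beta-m in mammals, some were at or near 0 and some were not. MYH2 and CKM were listed at 0 in all 18 libraries, and MYOD1, MYOG, MB and MYBPC1 did not exceed 1.92 FPKM in any. Of the 16 gene models of the muscle list, 4 had a mean above 1 FPKM: TNNT3 (122 FPKM over the 18 libraries), ACTA1 (46.3), TNNC1 (25.0) and TNNC2 (21.2). The summed list was 55.3 to 370 FPKM with and 130 to 378 FPKM without cuticulosomes, and its lowest sum was in pigeon 435 with cuticulosomes.

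Of the genes that mark dark cells of the tegmentum vasculosum, 2 had their high values in the same libraries as ATP1B4. BSND, the barttin subunit, had 90.6 FPKM in pigeon 435 with cuticulosomes, 41.0 in pigeon 435 without and 62.0 in pigeon 513 with, and at most 2.84 FPKM in the other 15 libraries. KCNQ1 (CLIV_003135, scaffold 16) had 788, 319 and 106 FPKM in these same 3 libraries and at most 20.3 FPKM in the rest. Next highest in ATP1B4 were the pools of pigeon 515, at 125 FPKM with and 73.2 FPKM without cuticulosomes. There BSND had 0.0872 FPKM with and 1.01 FPKM without, and this KCNQ1 model 0.199 and 20.3 FPKM. In pigeon 513 the contrast lay within the bird: BSND and this KCNQ1 model were at 62.0 and 106 FPKM with cuticulosomes, against 0 FPKM listed for both in the pool without. The hair cell list summed to 3353 FPKM in pigeon 513 with cuticulosomes and 4517 FPKM in its pool without.

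The rest of the dark cell list was less uniform. SLC12A2 had 63.7 FPKM with and 24.2 FPKM without cuticulosomes in pigeon 435, but 6.27 FPKM in pigeon 513 with cuticulosomes, where up to 10.4 FPKM were found in other libraries. SLC26A4 and both MEIS1 gene models were highest in pigeon 435 with cuticulosomes (12.0, 22.7 and 12.6 FPKM). In pigeon 513 with cuticulosomes SLC26A4 was listed at 0, and the MEIS1 models had 2.57 and 1.48 FPKM, where up to 5.88 and 3.24 FPKM were found in the 15 libraries with less ATP1B4. The melanin enzyme gene DCT did not exceed 0.106 FPKM. A further pair of gene models named KCNQ1, both on scaffold 445, behaved differently from the model on scaffold 16, with their lowest values in pigeon 435 with cuticulosomes (17.5 and 12.3 FPKM). Symbols rest on sequence similarity, so whether the 3 models report on the same gene was not tested. In all, 6 of 7 symbols of the list matched 9 gene models, and its summed FPKM was 71.2 to 1019.7 with and 111 to 814 without cuticulosomes, a sum in which the scaffold 445 models weigh heavily. KCNE1, the partner of KCNQ1, was not analysed here.

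Of the 8 dark cell gene models averaging over 1 FPKM, 2 had their 3 highest values in the same libraries as ATP1B4, beside 212 of 11393 gene models in the whole table (1.86%). Among the regulators and anchors, 2 of 20 did so, SGK2 and ANK3. SGK2, a kinase related to SGK1, had 13.5, 14.7 and 30.0 FPKM in pigeon 435 with cuticulosomes, pigeon 435 without and pigeon 513 with, and at most 0.0426 FPKM in the other 15 libraries. In none of the other lists of pump genes or cell type markers did a gene model averaging over 1 FPKM have its 3 highest values in these libraries. The libraries were set by ATP1B4 itself and the lists were chosen with earlier results of these data known, so these shares are a description. In pools of 30 cells, more cells of a type and more RNA per cell cannot be told apart, and the part of dark cell RNA in the ATP1B4 values was not tested.

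**Figure D4:**
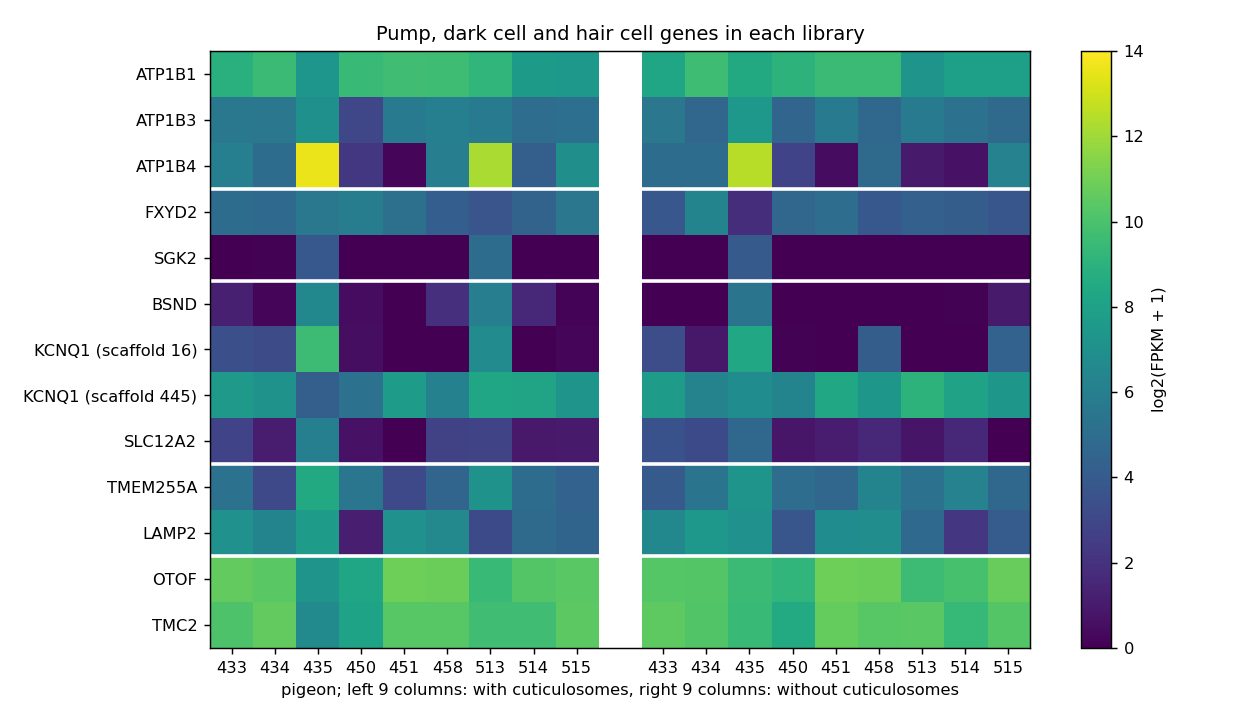
Level as log2(FPKM + 1), colour scale from 0 to 14, in the 18 libraries (left 9 columns with cuticulosomes, right 9 without, labelled by pigeon). Rows are, from the top, the 3 beta subunits, 2 other pump genes, 4 dark cell gene models, the 2 genes next to ATP1B4 and 2 hair cell markers. BSND, SGK2 and KCNQ1 (scaffold 16) have their 3 highest values in the same 3 columns as ATP1B4, though SGK2 stays in the lower part of the scale. OTOF and TMC2 are darkest in pigeon 435 with cuticulosomes.

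The gene models most like each beta subunit over the 18 libraries were sought among 10186 to which a symbol was given, by Pearson's r of log2(FPKM + 1). Libraries of a bird and of a run are not independent, so these values describe likeness and carry no p. For ATP1B4 they were ZNF750, known in humans as a regulator of epidermal differentiation (r = 0.89, Spearman's rho = 0.68), BSND (r = 0.89, rho = 0.72) and the carboxypeptidase-like gene CPXM2 (r = 0.88, rho = 0.62). Without the pair of libraries of pigeon 435 their r was 0.78, 0.76 and 0.76. Pigeon 513 with cuticulosomes still stood apart there, at 4842 FPKM of ATP1B4 against at most 125 FPKM in the other libraries left. No r without that library was computed. ZNF750 had 90.4, 57.8 and 41.2 FPKM in pigeon 435 with cuticulosomes, pigeon 435 without and pigeon 513 with, and at most 8.95 FPKM elsewhere. CPXM2 had 194, 83.4 and 27.0 FPKM there and at most 5.46 FPKM elsewhere. In its own comparison on counts, the study listed CPXM2 among the genes significantly higher with cuticulosomes.

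The other beta subunits had other companions. ATP1B1 was most like RAB15, a small GTPase of endosome recycling (r = 0.89, rho = 0.85), the tight junction gene CLDN3 (r = 0.83, rho = 0.76) and the synaptic vesicle GTPase RAB3A (r = 0.83, rho = 0.83), and each r was at least as high without pigeon 435. ATP1B3 was most like CAB39L, a scaffold of STE20-type kinases (r = 0.88, rho = 0.66), the poly(A)-binding protein gene PABPC1 (r = 0.86, rho = 0.72) and the respiratory enzyme gene SDHA (r = 0.83, rho = 0.60). All 3 companions of ATP1B3 had their highest value in pigeon 435 with cuticulosomes, where CAB39L reached 423 FPKM.

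ATP1B4 lies on chromosome 12 of the pigeon RefSeq assembly between LAMP2 and TMEM255A. LAMP2, a lysosomal membrane protein, had 208 FPKM with and 137 FPKM without cuticulosomes in pigeon 435. In pigeon 513 it had 7.72 FPKM with cuticulosomes and 26.5 FPKM without. LAMP2 also differed by run, at 79.9 to 208 FPKM in run 1, 1.26 to 133 FPKM in run 2 and 3.58 to 27.6 FPKM in run 3, the run of pigeon 513. TMEM255A, a membrane protein of little known function, had its 3 highest values in the same libraries as ATP1B4, at 364, 152 and 141 FPKM in pigeon 435 with, pigeon 435 without and pigeon 513 with cuticulosomes, and 80.2 FPKM or less in the other 15 libraries. The neighbours thus differed from each other in pigeon 513.

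Averaged over the pools of each bird, the 3 beta subunits showed no relation that passed a test with all 9 birds. The permutations exchanged birds freely across the 3 runs, so differences between runs can enter each r and its p. Over 9 birds, ATP1B3 and ATP1B4 had r = 0.68 (two-sided exact permutation p = 0.0619, adjusted over the 3 pairs 0.186) and rho = 0.30 (exact permutation p = 0.437, adjusted 0.655). Without pigeons 435 and 450, the birds farthest from the median of ATP1B3, r was -0.24. The relation rests on pigeon 435: without that bird alone r was 0.17, and without pigeon 450 alone it was 0.68. Without pigeon 451, which had the least ATP1B4, r was 0.89 (exact permutation, p adjusted over the 3 pairs 0.0292). That was the lowest adjusted p of 14 alternatives and was not adjusted over them. Pigeon 435 was still among the birds there, so no relation is read from it. ATP1B1 and ATP1B4 had r = -0.49 (exact permutation p = 0.186, adjusted 0.280), rho = -0.47 (exact permutation p = 0.213, adjusted 0.638) and r = -0.34 without pigeons 434 and 451. ATP1B1 and ATP1B3 had r = -0.30 (exact permutation p = 0.472, adjusted 0.472), rho = 0.03 (exact permutation p = 0.948, adjusted 0.948) and r = -0.40 without the same pair of birds.

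**Figure D5:**
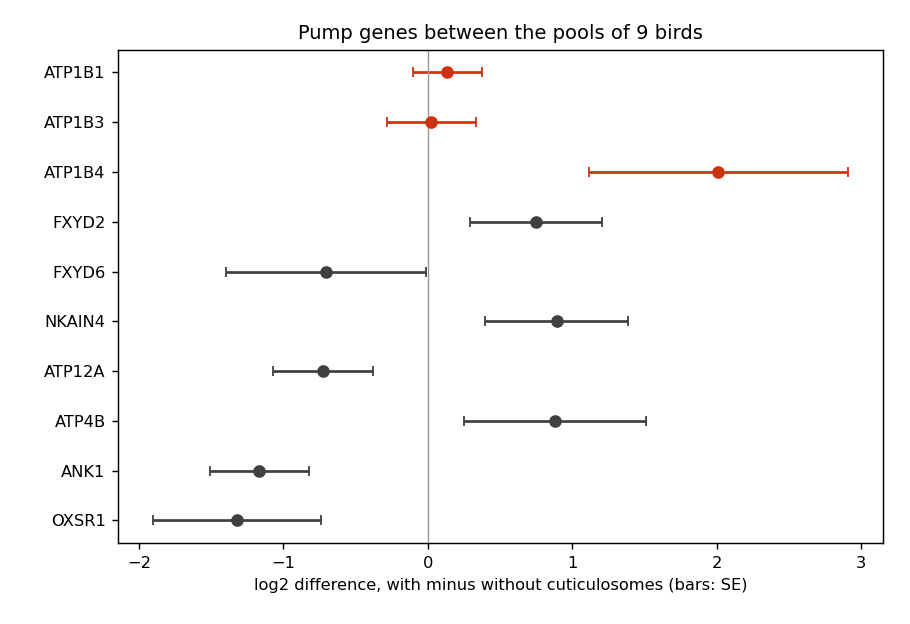
Mean log2 difference of log2(FPKM + 1), with minus without cuticulosomes, over 9 birds for the 3 beta subunits (red, a description) and for the pump partners and the 2 regulators named in the text (grey), with bars of 1 SE from limma. ATP1B4 lies at 2.01 with the longest bar of the set (SE 0.90), and ATP1B1 and ATP1B3 lie near 0.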

How the data were processed

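RNA of 18 pools of 30 pigeon hair cells was sequenced by the study as 50-base single-end reads after full-length cDNA amplification. The authors aligned reads with TopHat 1.4.1, allowing 1 location per read, and estimated the deposited FPKM values per gene model with Cufflinks 1.3.0, with bias correction. Per the labels, HTSeq 0.6.1p1 and DESeq2 1.10.1 served their own comparison, whose columns (mean, log2 fold change, error, statistic and p-values) were not used. All per-sample columns were matched to a sample (0 unmatched). Of 20918 gene models, 16209 carry a symbol. Strand was not used in library making, so overlapping antisense genes cannot be separated, and symbols rest on sequence similarity.

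The study ran its comparison on counts, but FPKM are not counts, so log2(FPKM + 1) was fitted with limma 3.58.1 in R 4.3.3 (mean-variance trend, bird as block, Benjamini-Hochberg adjustment) for the 11393 gene models whose mean FPKM over the libraries exceeded 1, after a check on simulated data. Other values and the plots were made in Python 3.11.15 (pandas 2.3.3, numpy 2.4.6, matplotlib 3.10.9, scipy 1.17.1). The bird pairs the pools by design. As a check, deviations from the group means correlated within birds at a median of 0.183 (0.121 to 0.591), against -0.0646 between birds, and 9 of 9 pools with cuticulosomes correlated best with the other pool of their bird. A supplementary list of the study names the pools of pigeons 434 and 435 without cuticulosomes the other way round from the table's header. The header was followed, because the pools of pigeon 435 as named there correlated at 0.591, against -0.0412 for the exchanged pair. For pigeon 434 the value was 0.161 as named there, against -0.0711 with the exchanged pool. Both pools of pigeon 435 stood apart from the rest in content, so their correlation cannot by itself settle which name is right. Pigeons are named by the header throughout.

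Genes named are the 3 beta subunits, for each the 3 gene models of highest Pearson r, the neighbours of ATP1B4 and members of the 4 pathway lists with a mean FPKM above 1, and markers beside them. Members and lists were chosen with earlier results of these data known. Some genes of the lists are not reported here. CD74, CALB1, OC90, GJB6, TECTB, SOX2, GFAP, SOX10, TECTA, HES5 and the muscle and dark cell genes below a mean of 1 FPKM were named after their values were seen. Alternatives were another pseudocount (0.1), no filter, a filter of FPKM above 1 in at least 9 libraries, upper quartile and median ratio scaling, no block, the run as block, and each bird or run left out. Exchanging the pools of pigeons 434 and 435 and leaving out pigeons 435 and 513 were added after seeing the data. Names and neighbours were taken from the RefSeq annotation of assembly bColLiv1.pat.W.v2, which is not the build of the files.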

Additional observations from a re-analysis of the deposited data

Results flagged for a closer look

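In 16 groups of 9 libraries (the beta subunits and tested pump partners, on the log2 scale), Dixon's criterion for a library apart was met 2 times, each time by pigeon 435. These were ATP1B3 without cuticulosomes (175 FPKM) and ATP1B4 without cuticulosomes (5883 FPKM). ATP1B4 with cuticulosomes was not singled out this way, since pigeon 513 stood beside pigeon 435 there. Chance alone meets the criterion in about 1 in 20 groups, but the beta subunits were chosen with these high values known, so the count is a description and is not read against chance.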

How the results depend on the processing

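Under 21 alternatives limma called 0 gene models in either direction at an adjusted p under 0.05, and 0 gene models of the pathway lists. Without adjustment 182 to 416 gene models were higher and 113 to 262 lower. Without the replicate block by bird, 182 were higher and 113 lower, the pairing left the mean differences of ATP1B1 (0.13), ATP1B3 (0.02) and ATP1B4 (2.01) as they were, and the SE of ATP1B4 was 1.47. With the run in place of the bird 225 were higher and 129 lower, and without run 3, 239 were higher. The log2 difference was -0.09 to 0.30 for ATP1B1, -0.14 to 0.22 for ATP1B3 and 0.42 to 2.95 for ATP1B4. Alternatives that changed only the block or the filter cannot move these differences. ATP1B4 was chosen with its levels known, so the sign of its difference is a description. Without adjustment 0 to 3 pathway gene models were higher and 1 to 4 lower. Leaving out each bird, the correlation of ATP1B3 and ATP1B4 was 0.170 to 0.888, the highest without pigeon 451, and the cause was not tested. Its exact permutation p, adjusted over the 3 pairs, was 0.0292 to 0.973 over 14 alternatives. The lowest, without pigeon 451, was not adjusted over the alternatives. The correlation of ATP1B1 and ATP1B3 turned to 0.0445 with the pools of pigeons 434 and 435 exchanged and to 0.0454 without pigeons 435 and 513; the cause was not tested. The depth of each library was not known, so values below 1 FPKM cannot be told from absence.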
